A study of Mus musculus with 2 samples.

Results

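The genes described here are 8 microRNA genes of the miR-302 cluster, which ends in Mir367, and of the miR-290 cluster, the microRNAs best known from mouse embryonic stem cells, as they were counted in fetal liver. They were chosen by name, with earlier results of these data known: Mir302a, Mir302b, Mir302c, Mir302d and Mir367 from the first cluster, and Mir291a, Mir294 and Mir295 from the second. All 8 were rows of the count tables, among 1973 microRNA genes. The other 4 counted genes of the miR-290 cluster (Mir290a, Mir292, Mir291b and Mir293) are given beside them. Small RNA came from whole liver of healthy B6NCrl mouse embryos at embryonic day 13.5, in 2 libraries, biological replicates 1 and 2 of the labels. Each came from its own biosample of embryos of both sexes, pooled, with the same donor identifier; the number of embryos is not stated in the labels. RNA below 30 bases was selected. There is 1 group with no treatment and no other tissue or age, so levels are described and no condition is compared.

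Each cluster is transcribed as a long precursor that holds several hairpins, and each hairpin is cut into short mature microRNAs. A mature microRNA finds its targets mainly through its seed, bases 2 to 8 from the 5′ end. Both clusters are switched on in pluripotent cells, where they favour fast cell division and hold back differentiation, and both are silenced as tissues form. The miR-290 cluster belongs to the earliest embryo, the trophoblast and the germ line, while miR-302 is prominent in the epiblast and the gastrulating embryo. The liver at this age is the main blood-forming organ and also holds immature hepatocytes.

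The mature sequences show how closely the clusters are related and how Mir367 differs in its seed. They come from RefSeq (GRCm38.p6), which gave a mature sequence for 8 of the 8 members, for Mir302a the 5p arm alone, and the seed is in capitals.
miR-302b-3p: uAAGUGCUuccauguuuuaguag
miR-302d-3p: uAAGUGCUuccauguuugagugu
miR-302c-3p: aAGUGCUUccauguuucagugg
miR-302a-5p: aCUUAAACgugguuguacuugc
miR-291a-3p: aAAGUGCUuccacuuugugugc
miR-294-3p: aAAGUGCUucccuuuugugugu
miR-295-3p: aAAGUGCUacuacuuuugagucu
miR-367-3p: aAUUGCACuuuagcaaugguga
miR-293-3p: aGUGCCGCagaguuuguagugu
miR-17-5p: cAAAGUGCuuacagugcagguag
The seed AAGUGCU was found in 5 of 1679 mature mouse microRNAs of the table (0.298%), and these were miR-302b-3p, miR-302d-3p, miR-291a-3p, miR-294-3p and miR-295-3p. The 3p arm of Mir302a is not among the 1679, so it could not enter this count. Its hairpin holds uaagugcuuccauguuu, the first 17 bases of miR-302b-3p and miR-302d-3p, AAGUGCU included. The same 6 letters AAGUGC begin at base 2 in the 5 arms with the seed AAGUGCU, at base 1 in miR-302c-3p and at base 3 in miR-17-5p. They were searched on the mature strand within the first 9 bases, where 19 of 1679 arms (1.13%) hold them. Of these arms, 8 are from counted genes of the 2 clusters and 6 from the miR-17 family. Another is miR-290b-3p, whose gene is not among the counted miR-290 genes. The seed of miR-293-3p holds part of these letters only, and that of miR-367-3p, AUUGCAC, belongs to another family, with miR-25, miR-32, miR-92a, miR-92b and miR-363.

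On chromosome 3 the 5 hairpins of miR-302 lie within 580 bases of the plus strand (mm10), in the order Mir302b (127545228 to 127545301), Mir302c (127545363 to 127545430), Mir302a (127545496 to 127545564), Mir302d (127545624 to 127545689) and Mir367 (127545733 to 127545807). All 5 lie in an intron of Larp7, a protein-coding gene of the minus strand. On chromosome 7 the 7 counted miR-290 hairpins lie within 2216 bases of the plus strand. Of the members, Mir291a (3218919 to 3219000), Mir294 (3220641 to 3220724) and Mir295 (3220773 to 3220841) lie opposite an untranslated part of an exon of Nlrp12, a protein-coding gene of the minus strand. Neither host is on the strand of its microRNAs, and no read was counted on the opposite strand at any of the 8 members in either library.

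Replicate 1 held 2607403 counts on the strand of the 1973 genes and replicate 2 held 4286742, and levels are counts relative to these totals, times 1000000 (CPM). Reads that mapped to several places, 36.7% of all reads in replicate 1 and 32.0% in replicate 2, are in no gene count. With a count of 0, up to 3 counts remain possible (a one-sided limit for counting error, used wherever a gene has no counts), which is 1.15 CPM in replicate 1 and 0.700 in replicate 2. The tissue label was checked against liver markers: the hepatocyte microRNA Mir122 was first of all genes at 79844 and 80145 CPM. The rest of the hepatocyte list was far lower. Mir192 stood at 2634 and 2909 CPM, Mir194-2 at 1036 and 1219, Mir148a at 1054 and 1105, and Mir194-1 at 6.90 and 9.33. The endothelial Mir126a stood at 57502 and 54545 CPM. The leukocyte list (Mir223, Mir150, Mir155) summed to 10188 and 10376 CPM, most of it Mir223. The mesenchymal list (Mir143, Mir145a, Mir214) summed to 20750 and 19932 CPM, most of it Mir143. Of the red cell microRNAs, Mir451a stood at 10750 and 26342 CPM, Mir144 at 6405 and 5873, and Mir486 at 834 and 820. Of markers of other embryonic tissues, 4 of 5 counted neural genes (3 Mir124a genes and Mir9-2) had no counts, all of them genes with close copies. The neural list summed to 3.07 and 4.67 CPM, and the epithelial list (Mir200a, Mir200b, Mir200c, Mir141, Mir429) to 2335 and 2777 CPM. Mir375, of pancreas and endocrine cells, stood at 1650 and 1779 CPM, and the muscle list summed to 872 and 522 CPM. In whole tissue, fewer cells of a type and less RNA per cell cannot be told apart.

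Both clusters were present at low level, and 7 of the 8 members had at least 10 counts in each library, which is called detected here. Among all genes, 18.6% were detected. The 8 members together held 0.0411% of gene counts in replicate 1 and 0.0342% in replicate 2. Their median gene stood at 34.8 CPM by mean of the libraries.

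Mir302a was the most abundant member, with 360 counts in replicate 1 and 468 in replicate 2, or 138 and 109 CPM. That is 124 ± 20.4 CPM (SD, n = 2) and place 193 of 1973. Mir122 had 578-fold its counts in replicate 1 and 734-fold in replicate 2. The genes next to it in level were Mir29c (127 CPM) and Mir668 (125 CPM) above, and Mir92b (123 CPM) and Mir331 (118 CPM) below.

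Mir302d had 280 and 427 counts, or 107 and 99.6 CPM (103 ± 5.50, place 203). Its level was below that of Mir302a in both libraries, by 1.29-fold in replicate 1 (95% counting interval 1.10 to 1.51) and 1.10-fold in replicate 2 (0.959 to 1.25). The second interval includes equality, so their order is not firm.

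Mir302b, the first hairpin of the cluster, had 185 and 223 counts, or 71.0 and 52.0 CPM (61.5 ± 13.4, place 220). Mir302a had 1.95-fold its counts in replicate 1 (1.63 to 2.34) and 2.10-fold in replicate 2 (1.79 to 2.47). Mir302b therefore stood below both Mir302a and Mir302d in each library.

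Mir302c had 35 and 28 counts, or 13.4 and 6.53 CPM (9.98 ± 4.87, place 301). It lies between Mir302b and Mir302a in the cluster, and these had 5.29-fold and 10.3-fold its counts in replicate 1 and 7.96-fold and 16.7-fold in replicate 2. Level thus did not follow position along the precursor.

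Mir367, the last hairpin of the cluster and the one with another seed, had 0 counts in both libraries. Set against the limit of 3 counts per library, its neighbour Mir302d had 93.3-fold as many counts in replicate 1 and 142-fold in replicate 2. For Mir302a this was 120-fold and 156-fold. Counting error of Mir302d and Mir302a is not included, so these ratios are not lower bounds. The absence of counts was shared by both libraries, and none was found on the opposite strand. The hairpins of the neighbours Mir302d and Mir367 and of Mir302a are shown with the mature arms of the table in capitals, since Mir302d and Mir302a had the most counts of the cluster and Mir367 had none.
Mir302d: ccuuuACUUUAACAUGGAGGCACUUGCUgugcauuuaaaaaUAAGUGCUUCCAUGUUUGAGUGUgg
Mir367: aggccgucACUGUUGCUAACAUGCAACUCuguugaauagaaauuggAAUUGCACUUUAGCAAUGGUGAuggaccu
Mir302a: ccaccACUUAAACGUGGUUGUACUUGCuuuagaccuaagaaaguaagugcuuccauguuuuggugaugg
By RNAfold the Mir367 hairpin had a minimum free energy of -34.50 kcal/mol over 75 bases, against -31.70 for Mir302a, -28.60 for Mir302c, -27.50 for Mir302d and -23.30 for Mir302b. Its free energy was thus the lowest of the 5 hairpins of this cluster, but it was also the longest of them, and the energies are not scaled to length. By share of paired bases Mir302c was higher, at 79.4% against 77.3% for Mir367. The GC content of Mir367, 42.7%, lay within that of the others, 39.2% to 47.1%. Any bearing of the fold on the counts was not tested.

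**Figure D1:**
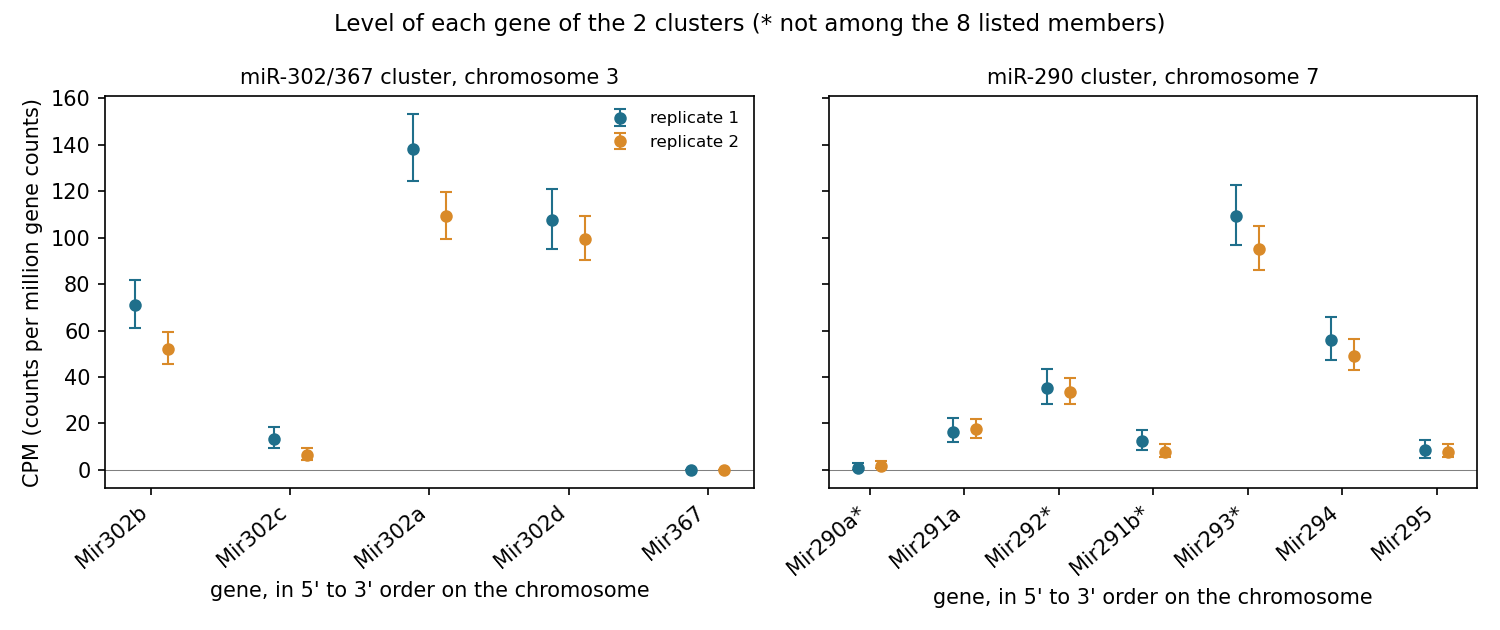
Level of each gene in CPM (y axis) in 5′ to 3′ order on the chromosome (x axis) for the miR-302 cluster (left) and the 7 counted genes of the miR-290 cluster (right), with 1 point per library and the exact 95% Poisson interval as bar where there are counts; genes with an asterisk are not among the 8 members. Mir302a at 138 and 109 CPM is the highest gene of both clusters, Mir293 at 109 and 95.2 CPM the highest on chromosome 7, and Mir367 is at 0.

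Of the miR-290 members, Mir294 was the highest, with 146 counts in replicate 1 and 211 in replicate 2, or 56.0 and 49.2 CPM (52.6 ± 4.79, place 225). Mir294 is one of the most abundant microRNAs of mouse embryonic stem cells. Here it stood beside Mir1247 and Mir30c-2 (53.4 and 53.2 CPM) above and Mir34a and Mir219a-1 (both 52.6 CPM) below. Against Mir302b its order was not firm: Mir302b had 1.27-fold its counts in replicate 1 (1.01 to 1.59) and 1.06-fold in replicate 2 (0.872 to 1.28).

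Mir291a, the first of the 3 on the chromosome, had 43 and 75 counts, or 16.5 and 17.5 CPM (17.0 ± 0.710, place 276). Mir294 had 3.40-fold its counts in replicate 1 (2.40 to 4.89) and 2.81-fold in replicate 2 (2.15 to 3.71). The 2 genes kept this order in both libraries.

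Mir295, the last hairpin, had 22 and 34 counts, or 8.44 and 7.93 CPM (8.18 ± 0.358, place 317). Mir294 had 6.64-fold its counts in replicate 1 and 6.21-fold in replicate 2. Mir295 was the lowest detected member by mean, but Mir302c was above it in replicate 1 and below it in replicate 2, so the order of these 2 is not firm.

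The cluster on chromosome 7 had a higher gene outside the members. Mir293 had 285 and 408 counts, or 109 and 95.2 CPM (102 ± 9.99), and made up 45.8% and 44.6% of the counts of the 7 counted miR-290 genes. Mir292 followed at 35.3 and 33.6 CPM, Mir291b at 12.3 and 7.93 CPM, and Mir290a at 2 and 8 counts was not detected. The 3 members together made up 211 of 622 counts of this cluster in replicate 1 and 320 of 914 in replicate 2. Mir293 and Mir302d could not be ranked: the ratio of Mir302d to Mir293 was 0.982 in replicate 1 (0.830 to 1.16) and 1.05 in replicate 2 (0.912 to 1.20).

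**Figure D2:**
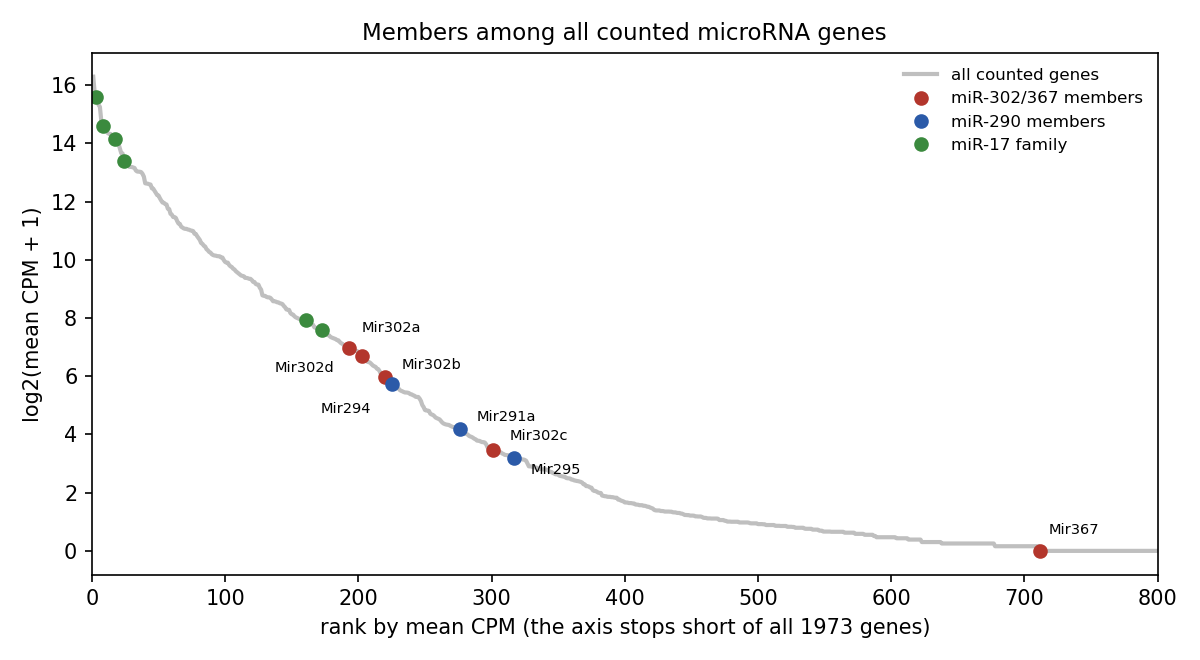
Log2(mean CPM + 1) of the 2 libraries (y axis) against the rank of each gene (x axis) for all counted microRNA genes (grey line), with the miR-302 members in red, the miR-290 members in blue and the miR-17 family in green. The 7 detected members lie between place 193 and place 317, below all 6 genes of the miR-17 family, and Mir367 lies at 0 with the genes without a count, which share place 712.

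The residual levels of the clusters were compared within each library, where the total cancels. The miR-302 members summed to 860 counts and the miR-290 members to 211 in replicate 1, a 4.08-fold ratio (95% counting interval 3.50 to 4.76). In replicate 2 they summed to 1146 and 320, a 3.58-fold ratio (3.16 to 4.07). The log2 ratio was 1.93 ± 0.13 (SD, n = 2), and the miR-302 sum was the higher in both libraries. An exact test over 2 libraries cannot give a two-sided p below 0.5, so none is given.

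The size of this ratio depended on which genes of chromosome 7 were entered. With all 7 counted miR-290 genes the sums were 860 against 622 and 1146 against 914, a ratio of 1.38-fold in replicate 1 (1.25 to 1.54) and 1.25-fold in replicate 2 (1.15 to 1.37), or 0.40 ± 0.10 in log2. Mir293 alone held more counts in each library than the 3 members together. Without Mir302a and Mir294, the highest member of each cluster, the log2 ratio was 2.79 ± 0.22. In the same direction, the median miR-302 member stood above the median miR-290 member by 1.84 ± 0.38 in log2.

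**Figure D3:**
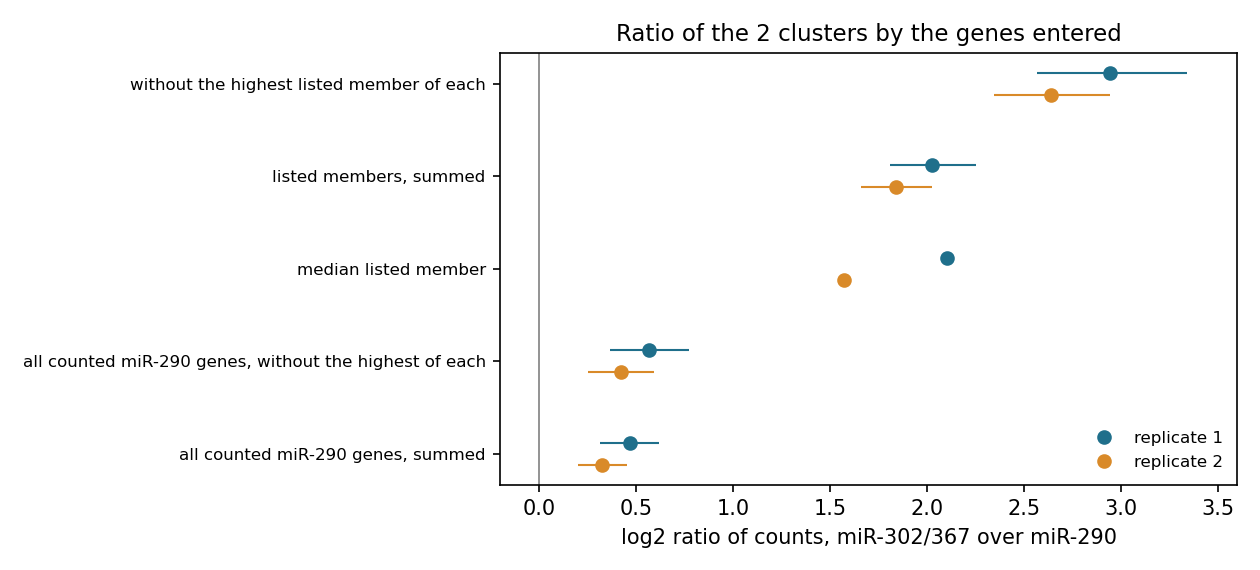
Log2 ratio of counts, miR-302 over miR-290 (x axis), for 5 choices of genes (y axis), with 1 point per library and the exact 95% counting interval as line; medians have no interval. Every point lies to the right of 0, from 0.33 in replicate 2 with all counted miR-290 genes to 2.94 in replicate 1 without the highest member of each cluster.

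The libraries were then compared with each other, gene by gene over the whole table. Each gene's split of counts was set against the split of the totals by an exact binomial test (two-sided), with Benjamini-Hochberg adjustment. This test holds counting error only, so it compares these 2 libraries and no condition. At an adjusted p under 0.05 it called 3 of 7 members with a count (42.9%, all 7 being detected), against 20.1% of genes with a count (143 of 711), 37.6% of detected genes, and 19.2% of the 125 detected genes between Mir295 and Mir302a in level. All 3 were lower in replicate 2, as were 11.5% of the 711 genes, while 8.58% were higher (82 and 61 genes; with TMM library sizes, 63 lower and 72 higher).

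The 3 called members were all from the miR-302 cluster. Mir302a was lower in replicate 2, with a log2 difference of -0.34 (95% counting interval -0.54 to -0.14, adjusted p = 0.00564, exact binomial test). Mir302b differed by -0.45 (-0.74 to -0.16, adjusted p = 0.0128, exact binomial test) and Mir302c by -1.04 on 35 and 28 counts (-1.81 to -0.28, adjusted p = 0.0305, exact binomial test). Differences at least as large as these were seen in 52, 34 and 4 of the 125 genes of this range of level, a set that includes the detected members themselves.

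The other members were not called. Mir302d differed by -0.11 (-0.33 to 0.11), Mir294 by -0.19 (-0.50 to 0.13), Mir295 by -0.09 (-0.90 to 0.75) and Mir291a by 0.09 (-0.47 to 0.66). These intervals allow a difference in either direction. As sums, the miR-302 members stood at 330 CPM in replicate 1 (308 to 353) and 267 CPM in replicate 2 (252 to 283), and the miR-290 members at 80.9 CPM (70.4 to 92.6) and 74.6 CPM (66.7 to 83.3). The first pair of intervals does not overlap and the second, on 211 and 320 counts, does. The intervals of the ratio of the clusters overlap between the libraries (3.50 to 4.76 in replicate 1 and 3.16 to 4.07 in replicate 2). The difference between the clusters was not tested. The muscle list (2 of 3 genes counted) was also lower in replicate 2, at 872 and 522 CPM, nearly all of it Mir206, with Mir1a-1 at 1 and 0 counts. The red cell list (Mir451a, Mir144, Mir486) summed to 17989 and 33035 CPM, and of its 3 genes Mir451a alone was higher in replicate 2 (10750 and 26342 CPM), with Mir144 at 6405 and 5873 CPM and Mir486 at 834 and 820 CPM. Their part in the difference of the members between the libraries was not tested.

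**Figure D4:**
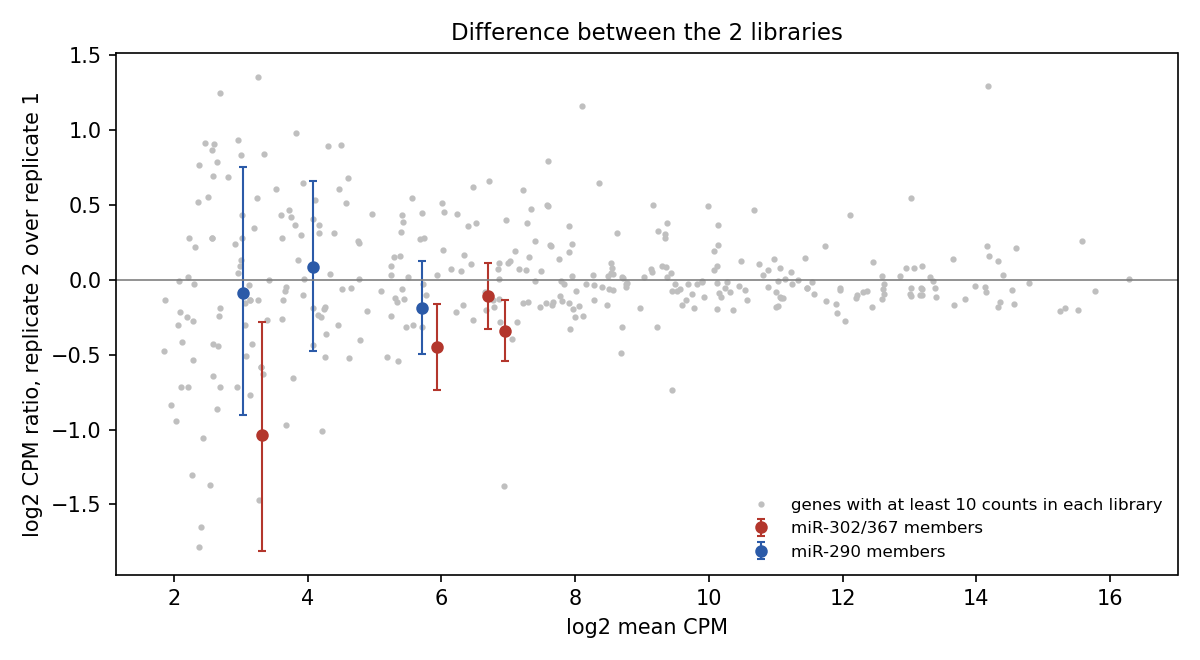
Log2 ratio of CPM, replicate 2 over replicate 1 (y axis), against log2 mean CPM (x axis) for all detected genes (grey), the miR-302 members (red) and the miR-290 members (blue), with the exact 95% counting interval as bar for the members. Mir302a, Mir302b and Mir302c lie below 0 with their whole interval, and the other 4 detected members have intervals that include 0.

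Genes with related seeds were far more abundant. The miR-17 family, growth-promoting microRNAs whose 5p arms hold AAGUGC from base 3, held 96106 CPM in replicate 1 and 110663 in replicate 2, or 9.61% and 11.1% of gene counts. That was 234-fold and 324-fold the sum of the 8 members, and 169-fold and 230-fold the sum of all counted genes of both clusters. Mir17 stood at 49109 ± 6186 CPM, Mir20a at 24782 ± 2622 CPM, Mir93 at 18260 ± 2017 CPM and Mir106b at 10801 ± 600 CPM (SD, n = 2). The lowest 2 of this family, Mir106a at 240 ± 22.0 CPM and Mir20b at 192 ± 46.7 CPM, were still above Mir302a by mean.

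The genes of the microRNAs that share the seed of miR-367-3p were all detected, 6 of 6, while Mir367 had no counts. Their sum was 10660 CPM in replicate 1 and 9824 CPM in replicate 2. Mir92-1, from the miR-17-92 cluster, led at 8365 ± 442 CPM, followed by Mir25 at 954 ± 5.09 CPM and Mir32 at 355 ± 28.9 CPM. The X-linked Mir92-2 and Mir363 stood at 266 ± 22.8 and 178 ± 15.8 CPM, and Mir92b at 123 ± 77.0 CPM. Mir92-1 and Mir92-2 share the mature arm miR-92a-3p, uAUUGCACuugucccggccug, so their counts are uncertain. A read of exactly this arm fits both genes, and each row joins both arms. Their counts, and with them the sum, need not be of the arm with the seed.

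Likeness among the members also bears on how they could be counted. The arms miR-302b-3p and miR-302d-3p share an unbroken stretch of 17 bases, uaagugcuuccauguuu, and miR-302c-3p shares 16 of these bases with both. Reads that end within the stretch would fit several places. In the miR-290 cluster miR-291a-3p and miR-294-3p share 11 bases, and miR-295-3p shares 8 with each. The hairpin of Mir302a, printed with that of Mir302d, also holds the 17 bases. For the 7 members with a hairpin in the table and the other 4 miR-290 genes, a search for words of 18 bases in RefSeq hairpins and GENCODE M21 transcripts of other loci, on both strands, found such words between Mir302a and Mir302b, between Mir291a and Mir291b, between Mir294 and 2 other genes (Iqcb1 and Rere), between Mir293 and 2 other genes (Gm45904 and Lhx9), and between Mir290a and 21 other genes. It found none for Mir302c, Mir302d, Mir367, Mir295 and Mir292. The rest of the genome was not searched, so this does not show that reads of Mir367 or of any other gene map to 1 place only. The limit and the ratios for Mir367 hold for the reads that were counted. The counts of Mir302a, Mir302b, Mir291a, Mir291b, Mir290a, Mir294 and Mir293, and with them the ratio of the clusters, are therefore uncertain. Those of Mir302c and Mir302d are uncertain for reads that end within the shared stretch. How many reads of any member were set aside as mapping to several places was not tested. Each row joins both arms of a hairpin, so the arms cannot be told apart.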

How the data were processed

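Small RNA of 2 libraries was counted per microRNA gene. The authors deposited raw read counts per gene. The lists of files deposited with them name the build mm10 and the GENCODE annotation M4. The sources used here name no aligner or counter. Reads mapping to several places stood in a separate row. Same-strand counts were taken and scaled to CPM, without the rows for unmapped, multiply mapped or unassigned reads. Genes were named by GENCODE M21 (GRCm38), which matched 1894 of 1973 genes; the others held 6 reads. Sequences came from RefSeq (GRCm38.p6). Levels are mean ± SD. Intervals are exact at 95% (Poisson for levels, Clopper-Pearson for ratios) and cover counting error only, as no molecular identifiers enter the counts.

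The libraries were compared by exact binomial tests (scipy 1.17.1, Python 3.11.15), also run on simulated Poisson counts. Those counts hold counting error only, so they do not show how the test behaves with other spread between libraries. With 1 group, no count model was fitted. edgeR 4.0.16 and DESeq2 1.42.0 gave alternative library sizes, and RNAfold 2.7.2 the folds. Alternatives also covered strand, detection limits, genes entered and each library alone. Text names the 8 members, the other miR-290 genes, genes of related seeds, markers, and the 2 genes next above and below the highest member of each cluster. Members and lists were chosen with earlier results of these data known.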

Additional observations from a re-analysis of the deposited data

How the results depend on the processing

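Relative to all reads, the miR-302 sum was 102 CPM, the miR-290 sum 26.5 CPM and the sum of all 8 members 128 CPM. These stood in place of 299, 77.8 and 376 CPM. In replicates 1 and 2 the larger total also holds reads mapped to several places (36.7% and 32.0%) and unmapped reads (19.6% and 24.2%). Reads outside genes were a smaller part of it (5.72% and 5.64%). With counts from both strands all 3 sums fell, since the total grew while no member gained a read. They were 267 CPM for miR-302, 69.7 CPM for miR-290 and 337 CPM for all 8 members. Only the miR-290 sum moved by more than its SD, which was 4.44 CPM against 44.2 CPM for miR-302. TMM and DESeq2 sizes moved no level by more than 1 SD. The log2 ratio of the clusters was positive under each choice run: 0.40 with all counted miR-290 genes, 2.79 without the highest member of each cluster, and 0.50 with all counted miR-290 genes but without the highest of each, a choice made after seeing the data, in place of 1.93. Without 1 library it ran from 1.84 to 2.03. A detection limit of 1, 5 or 20 counts left 7 members detected. The test between the libraries called 34.2% of genes with at least 10 counts in total. It called 3 members under each alternative, with adjusted p from 0.00354 to 0.0163 for Mir302a, 0.00815 to 0.0242 for Mir302b and 0.0196 to 0.0341 for Mir302c (exact binomial test). With each library alone, every level stayed within 1 SD of the mean, as it must with 2. Depth limits Mir302c and Mir295, at 22 to 35 counts in a library, and cannot tell a level of Mir367 under 1.15 CPM in replicate 1 from 0. No paired analysis was possible because there is only 1 group.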
